A study of Homo sapiens with 6 samples.

Results

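The sterol synthesis and SREBP2 genes described here are 32 of the 22989 genes in the count table, taken by exact match of their symbols to a list of enzymes, regulators and carriers, and all 32 passed the filter on low counts. They were measured by RNA-seq in cells labelled as PTX-resistant BCSC of the human line MDA-MB-231, with 3 LINC00115 KD and 3 WT libraries. The line derives from a triple-negative breast tumour, both groups had been made resistant to paclitaxel (PTX), and the BCSC are its stem-like cells, sorted for high aldehyde dehydrogenase (ALDH) activity. In KD the lncRNA LINC00115 was targeted by shRNA, and the comparison asks which transcripts differ with it. The controls have the genotype WT in the labels, while the study's text describes a control shRNA (shC), and the series has 1 kind of control. The study's text gives sh115-2 as the hairpin of the sequenced KD cells, whereas the labels number the KD libraries sh115-1 to sh115-3, names that the text uses in part for different hairpins, so it could not be settled that all 3 libraries carry sh115-2. The labels do not say whether the libraries of a group came from separate cultures, so p-values measure the spread between these libraries, which may be technical.

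The libraries held between 36979221 and 38799331 counts, and libraries of the same group differed by more than sampling noise. Gene symbols are in mouse style: 5777 are Gm or Rik names, given to uncharacterised mouse loci, and 276 of these had at least 100 counts in every library. The species of the counted reads, human by the labels, could therefore not be settled from the table. Symbols are printed as the table gives them, with no genome position. No gene is listed as LINC00115, so the knockdown could not be checked and directions rest on the labels. Of the markers of the labelled cells, Vim and Cd44 had at least 32751 counts in every library, whereas the ALDH gene Aldh1a1 had 8 to 17 counts in WT and 39 to 52 in KD, and Aldh1a3 had 0 to 4 counts in all 6 libraries. Axl, Krt8 and Krt18 were higher in every KD library, as was Esr1, with 24 to 29 counts in WT and 82 to 105 in KD. Esr1 encodes the oestrogen receptor, a protein that this line is known to lack. Across 10 lung epithelium markers, 10 were higher in every KD than in every WT library, with a summed level of 1.59 to 1.98 normalized CPM (read counts scaled by the TMM-adjusted total of the library) in WT and 74.5 to 86.2 in KD, and 6, among them Scgb1a1 and Sftpc, had 0 counts in all WT libraries. Of all genes that passed the filter, 37.8% were higher in every KD library.

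Cells build cholesterol from acetyl-CoA through mevalonate, isoprenoid diphosphates, squalene and lanosterol. The transcription factor SREBP2, encoded by Srebf2, switches on most genes of this route when sterols in the endoplasmic reticulum run low, and the Insig proteins hold its escort Scap back when sterols are plentiful. Proliferating tumour cells use the route for membranes and for the lipid anchors of small GTPases. Liver X receptors (LXRs) respond to oxysterols and promote sterol export.

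In the LINC00115 KD libraries, 17 of the 32 genes rose (53.1%), 5 fell (15.6%) and 10 did not pass the test, at an adjusted p-value under 0.05 in edgeR's quasi-likelihood test across 13497 genes. Among all genes tested, 36.7% rose and 36.7% fell by the same rule, 73.4% in either direction. The genes with the largest differences were Cyp51, Msmo1, Npc2, Fdps and Dhcr7, all more than 2-fold higher in KD, and the largest decreases were those of Soat1 and Stard3. With a fold change over 2 in addition, the thresholds of the study's methods, these 5 genes were called higher (15.6%, against 10.2% of all genes tested) and 0 were called lower (against 9.98% of all genes). The 0 also held at an unadjusted p under 0.05 and with DESeq2's Wald test. The lowest log2 fold change of a member under any alternative was −0.74, so no p threshold could have changed the 0. The median log2 fold change was 0.25 over the 32 genes and −0.0061 over all genes tested. Every KD library lay above every WT library for 18 members, where 37.8% of all genes did so, and below for 4 members, where 37.8% did so. In these bulk libraries, fewer cells of a type and less RNA per cell cannot be told apart.

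The 20 enzymes of synthesis held 12 genes that rose (60%), 1 that fell (5%) and 7 that did not pass, with a median of 0.25. The 12 genes of regulation, transport and storage held 5 that rose (41.7%), 4 that fell (33.3%) and 3 that did not pass, also with a median of 0.25. The shares of these 12 genes lie near the 36.7% that rose and 36.7% that fell among all genes tested. Whether the enzymes and the other genes differ was not tested, because genes are not replicates.

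**Figure D1:**
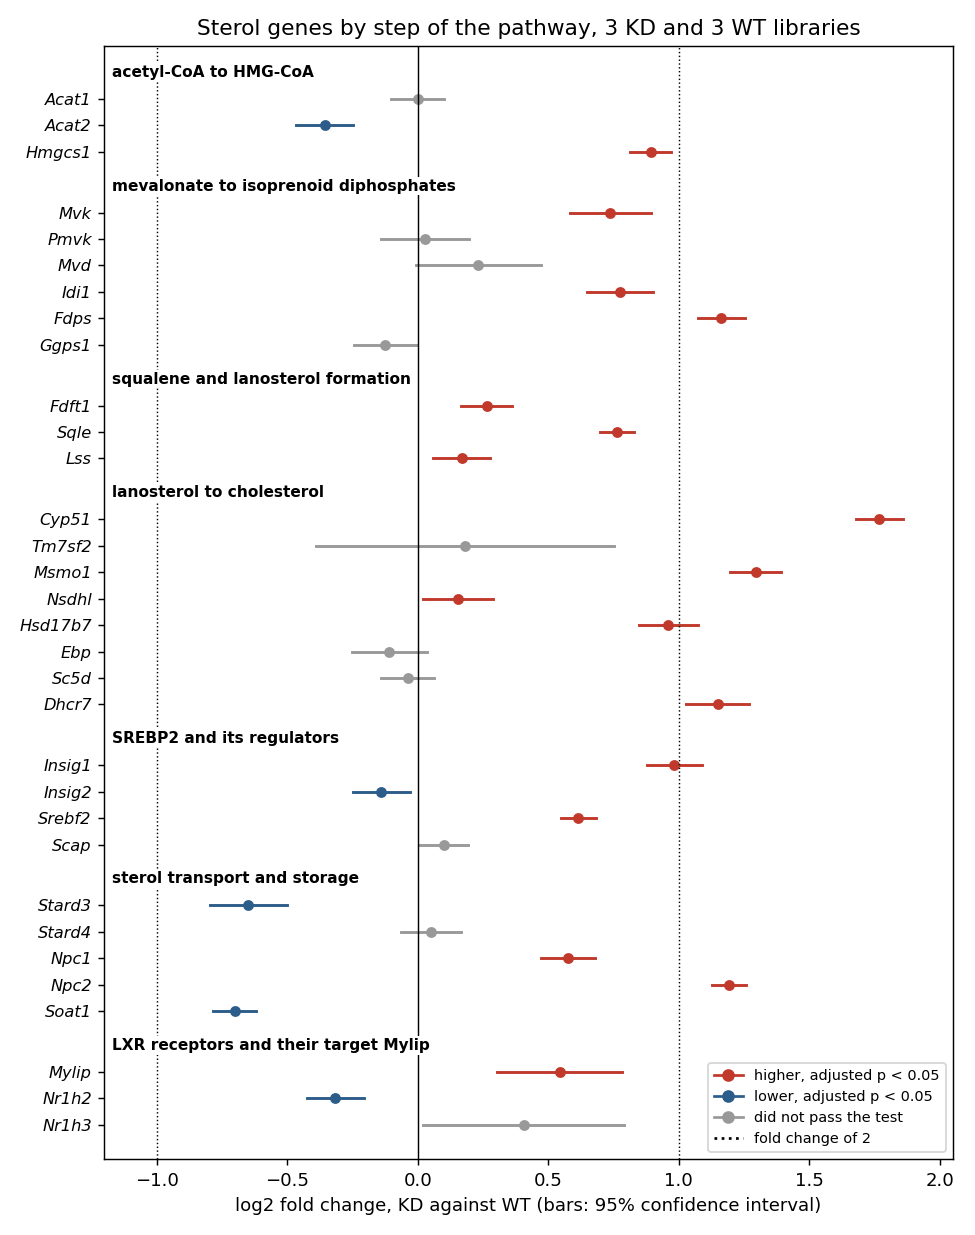
Log2 fold change of each of the 32 genes, KD against WT (x axis), grouped by step of the pathway, with bars for the 95% confidence interval of edgeR's fit on 3 KD and 3 WT libraries. Red genes rose, blue genes fell and grey genes did not pass the test, and only red genes (Fdps, Cyp51, Msmo1, Dhcr7 and Npc2) lie beyond the dotted line of a fold change of 2.

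Lung markers were not the only ones to move with the groups. The counts below stand beside 37.8% of all genes tested that were higher, and 37.8% that were lower, in every KD library. Of 10 kidney tubule markers, 9 were higher and 1 (Cubn) was lower in every KD library, with summed levels of 16.7 to 19.5 normalized CPM in WT and 45.4 to 49.0 in KD, and Kap, Umod, Slc22a6, Acsm2 and Miox had 0 counts in all WT libraries. Of 11 leukocyte markers in the table, 4 were higher and 1 was lower in every KD library, with summed levels of 72.1 to 86.0 in WT and 144 to 160 in KD. The higher genes were S100a8, Lyz2, Cd74 and S100a9. Most of the sum was S100a8, with means of 33.0 normalized CPM in WT and 95.2 in KD, and Cd68. Cd68 had means of 42.8 in WT and 47.2 in KD, with overlapping groups. Csf1r, the lower one, had 2 to 3 counts in WT and 0 to 2 in KD, too few to test, and separated only after scaling. Cd3e had 0 counts in every library and Ptprc 5 to 13. The 5 endothelial markers summed to 0.715 to 1.19 normalized CPM in WT and 57.3 to 59.7 in KD, where nearly all of it was Cdh5, while Pecam1 (6 to 19 counts) and Vwf (10 to 20 counts) overlapped between the groups. The 6 fibroblast markers summed to 174 to 193 in WT and 75.7 to 77.8 in KD, mostly Pdgfra, which was lower in every KD library, as was Dcn. The other 4, Col1a1, Col1a2, Col3a1 and Lum, had at most 20 counts in any library, and their groups overlapped. Markers of hepatocytes and adipocytes were near 0 in both groups, with at most 0.371 and 0.186 normalized CPM in WT and 0.336 and 0.129 in KD for the whole lists of 7 and 3 genes in the table. Of the 4 steroidogenic genes, which turn cholesterol into steroid hormones or supply electrons for it, Cyp11a1 had 75, 75 and 42 counts in WT and 0, 1 and 0 in KD, Hsd3b1 had 20, 29 and 52 in WT and 0 in each KD library, Cyp17a1 had 0 in all, and Fdx1 was higher in every KD library. The list's sum, mostly Fdx1, lay at 16.2 to 18.4 normalized CPM in WT and 21.1 to 24.8 in KD. The part of these cell types in the differences of the sterol genes was not tested.

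SREBPs bind sterol regulatory elements in promoters, usually together with the factors NF-Y, which binds CCAAT, and Sp1, which binds GGGCGG. Human promoter windows from RefSeq (GRCh38.p14) ran from 250 bases before to 50 after the start of a gene. They were matched for 29 of the 32 genes, of which 9 had several windows. Cyp51 was matched to CYP51A1 by an older symbol and the other matched genes by their own symbol. Acat2, Fdft1 and Sqle were not matched. Because the symbols of the table are in mouse style, these human windows are not known to be those of the counted genes. The letters TCACNCCA, the core of a sterol regulatory element, searched on both strands, were found for 3 genes, Mvk, Msmo1 and Srebf2. These 3 are among the 15 matched genes that rose. The letters were found for 0 of the 4 that fell and 0 of the 10 that did not pass. Whether the letters go with a rise was not tested. TCACNCCA stands in the windows of 4.80% of all 27305 genes with a window and of 10.3% of the 29 members. CCAAT was found for 22 members (75.9%, against 39.7% of all genes with a window) and GGGCGG for 28 (96.6%, against 48.3%). Among the 8879 windowed genes whose symbol was tested, these letters stand in 4.72%, 43.2% and 77.8%. The absence of these letters from a window says only that they are not in it.

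The 200 bases before the start are shown for the 3 genes with TCACNCCA, and for FDPS as a strongly raised gene without it. Capitals mark TCACNCCA, CCAAT and GGGCGG on either strand, so that CCAAT on the minus strand reads ATTGG and GGGCGG reads CCGCCC. In SREBF2 a further GGGCGG on the minus strand begins 5 bases before the start, shares a base with the marked one that begins at 10, and is not marked because it runs past the printed end.
MVK, chr12:109573594-109573793, + strand: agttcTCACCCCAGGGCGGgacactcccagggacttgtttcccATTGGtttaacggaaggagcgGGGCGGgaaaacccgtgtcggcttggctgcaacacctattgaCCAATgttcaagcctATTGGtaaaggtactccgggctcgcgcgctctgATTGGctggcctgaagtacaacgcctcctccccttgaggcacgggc
MSMO1, chr4:165327469-165327668, + strand: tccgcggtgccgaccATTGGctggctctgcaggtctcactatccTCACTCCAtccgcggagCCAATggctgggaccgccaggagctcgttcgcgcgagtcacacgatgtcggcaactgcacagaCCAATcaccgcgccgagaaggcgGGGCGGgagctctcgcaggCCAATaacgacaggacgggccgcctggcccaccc
SREBF2, chr22:41832905-41833104, + strand: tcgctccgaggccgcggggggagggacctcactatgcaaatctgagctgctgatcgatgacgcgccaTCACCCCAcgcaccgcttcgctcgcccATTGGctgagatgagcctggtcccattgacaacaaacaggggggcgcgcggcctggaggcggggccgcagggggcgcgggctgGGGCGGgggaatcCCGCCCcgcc
FDPS, chr1:155308666-155308865, + strand: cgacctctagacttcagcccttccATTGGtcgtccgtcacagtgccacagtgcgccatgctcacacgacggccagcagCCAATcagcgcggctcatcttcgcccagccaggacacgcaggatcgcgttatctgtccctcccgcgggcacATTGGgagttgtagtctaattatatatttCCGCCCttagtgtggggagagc
TCACNCCA begins 195 bases before the start in MVK, 156 in MSMO1 and 133 in SREBF2. In MVK it is followed directly by a GGGCGG, which begins at 187.

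At the entry to the pathway, the synthase rose while the thiolase of the cytosol fell. Hmgcs1, which joins acetoacetyl-CoA and acetyl-CoA to HMG-CoA, had 125, 133 and 133 normalized CPM in the WT libraries and 238, 246 and 241 in the KD libraries. The KD libraries were all well above the WT libraries, with a log2 fold change of 0.89 or 1.86-fold (standard error, SE, 0.04; adjusted p = 5.68e-21 by edgeR's quasi-likelihood test). Acat2, the cytosolic thiolase that makes acetoacetyl-CoA, had 71.9, 70.0 and 67.0 in WT and 50.9, 58.2 and 54.2 in KD. It fell by 0.36 on the log2 scale (SE 0.05, adjusted p = 4.52e-07, edgeR), without overlap between the groups. Acat1, the mitochondrial thiolase of ketone body and isoleucine metabolism, lay at 65.1 ± 2.24 in WT and 65.1 ± 1.72 in KD (SD, n = 3 libraries each), a log2 difference whose 95% confidence interval ran from −0.10 to 0.10.

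Of the 6 genes from mevalonate to the isoprenoid diphosphates, Mvk, Idi1 and Fdps rose and none fell. Mvk, the kinase that first phosphorylates mevalonate, had 16.9, 18.1 and 16.99 normalized CPM in WT and 29.1, 28.1 and 29.6 in KD, a log2 fold change of 0.74 (SE 0.08, adjusted p = 1.38e-10, edgeR). Idi1, which interconverts the C5 isoprenoid units, had 31.8, 36.4 and 31.5 in WT and 55.9, 60.0 and 54.8 in KD, a change of 0.78 (SE 0.06). Fdps, the synthase of farnesyl diphosphate and the enzyme blocked by nitrogen-containing bisphosphonates, had 62.8, 67.0 and 63.3 in WT and 142, 143 and 148 in KD. For all 3 genes the lowest KD library was above the highest WT library. The change of Fdps was 1.16 (SE 0.04, adjusted p = 2.23e-22, edgeR), or 2.24-fold.

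The remaining genes of this stretch did not pass the test. Pmvk and Mvd catalyse the steps between Mvk and Idi1. Pmvk lay at 20.8 ± 0.654 normalized CPM in WT and 21.2 ± 1.93 in KD (SD, n = 3 each). Mvd, which decarboxylates mevalonate diphosphate, ranged from 8.49 to 11.9 in WT and from 11.4 to 12.3 in KD, a log2 difference of 0.23 (adjusted p = 0.0765, edgeR). WT replicate 2 lay above the other WT libraries for Mvd, and without it the difference was 0.38 (adjusted p = 0.00767, edgeR), whereas without WT replicate 1 it was 0.13 (adjusted p = 0.357). Ggps1 makes geranylgeranyl diphosphate, used to anchor Rab proteins. It lay at 49.2 ± 2.09 in WT and 45.1 ± 3.06 in KD, a difference of −0.12 (adjusted p = 0.0610, edgeR), which passed without WT replicate 2 (−0.16, adjusted p = 0.0346) and when TMM was replaced by library size (−0.14, adjusted p = 0.0305) or upper quartile scaling (−0.17, adjusted p = 0.0135). Without KD replicate 1 the Ggps1 difference was −0.062 (adjusted p = 0.404, edgeR).

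All 3 enzymes from farnesyl diphosphate to lanosterol rose, by unequal amounts. Sqle, the squalene epoxidase and a rate-limiting step of the late pathway, had 286, 282 and 279 normalized CPM in WT and 480, 475 and 482 in KD, with little spread in either group. Its log2 fold change was 0.76 (SE 0.03, adjusted p = 5.55e-21, edgeR), or 1.70-fold. Fdft1, the squalene synthase that commits farnesyl diphosphate to sterols, had 67.7, 70.1 and 74.2 in WT and 84.7, 86.8 and 83.4 in KD. Lss, which closes squalene epoxide to lanosterol, had 54.2, 52.1 and 53.0 in WT and 62.3, 60.6 and 56.2 in KD. The groups did not overlap for either gene, but the changes were small, 0.26 for Fdft1 (adjusted p = 8.36e-06, edgeR) and 0.17 for Lss (adjusted p = 0.00575, edgeR).

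The largest change of all 32 genes was that of Cyp51, the lanosterol demethylase that starts the conversion of lanosterol to cholesterol. It had 54.5, 55.3 and 52.1 normalized CPM in WT and 183, 192 and 177 in KD, a log2 fold change of 1.77 (SE 0.04, 95% confidence interval 1.68 to 1.86, adjusted p = 1.23e-27, edgeR), or 3.41-fold. By size of increase it ranked 693 among the 13497 genes tested. Msmo1, the methyl sterol oxidase that follows in the same demethylation, had 56.8, 60.8 and 63.2 in WT and 147, 156 and 141 in KD, or 2.45-fold (log2 fold change 1.30, SE 0.05). Dhcr7, the reductase of the last step to cholesterol, had 32.3, 30.2 and 35.6 in WT and 75.3, 71.9 and 70.6 in KD, or 2.22-fold (log2 fold change 1.15, SE 0.06). For both genes every KD library had more than the highest WT library by a wide margin.

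Hsd17b7, the 3-ketosteroid reductase that works with Msmo1 and Nsdhl, had 33.2, 35.9 and 33.7 normalized CPM in WT and 65.0, 66.5 and 68.8 in KD. Its log2 fold change of 0.96 (SE 0.06, adjusted p = 5.51e-17, edgeR) was just under a fold of 2. Nsdhl, the decarboxylating dehydrogenase of the same complex, had 31.2, 31.8 and 34.0 in WT and 35.1, 38.0 and 35.1 in KD, a small rise of 0.16 (adjusted p = 0.0332, edgeR). That call was lost in 7 of 13 alternatives, among them leaving out WT replicate 1 (adjusted p = 0.0982), WT replicate 2 (0.0827) or KD replicate 2 (0.119). Not every enzyme of this stretch was higher in KD.

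Tm7sf2, a sterol reductase acting after Cyp51, had few reads, 54 to 97 counts in WT and 78 to 92 in KD, and its 95% interval for the log2 difference, −0.39 to 0.75, covers both a rise and a fall. Ebp, the sterol isomerase, lay at 36.6 ± 3.09 normalized CPM in WT and 34.0 ± 2.66 in KD, with overlapping groups. Sc5d, the desaturase between Ebp and Dhcr7, lay at 63.5 ± 0.836 in WT and 61.9 ± 1.31 in KD (SD, n = 3 each). The interval of the Sc5d difference, −0.14 to 0.06, leaves out a change of the size of that of Dhcr7. Among the 13 alternatives Ebp passed only without WT replicate 2 (−0.17, adjusted p = 0.0393, edgeR), and without WT replicate 3 or KD replicate 1 its difference was −0.053 or −0.039.

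**Figure D2:**
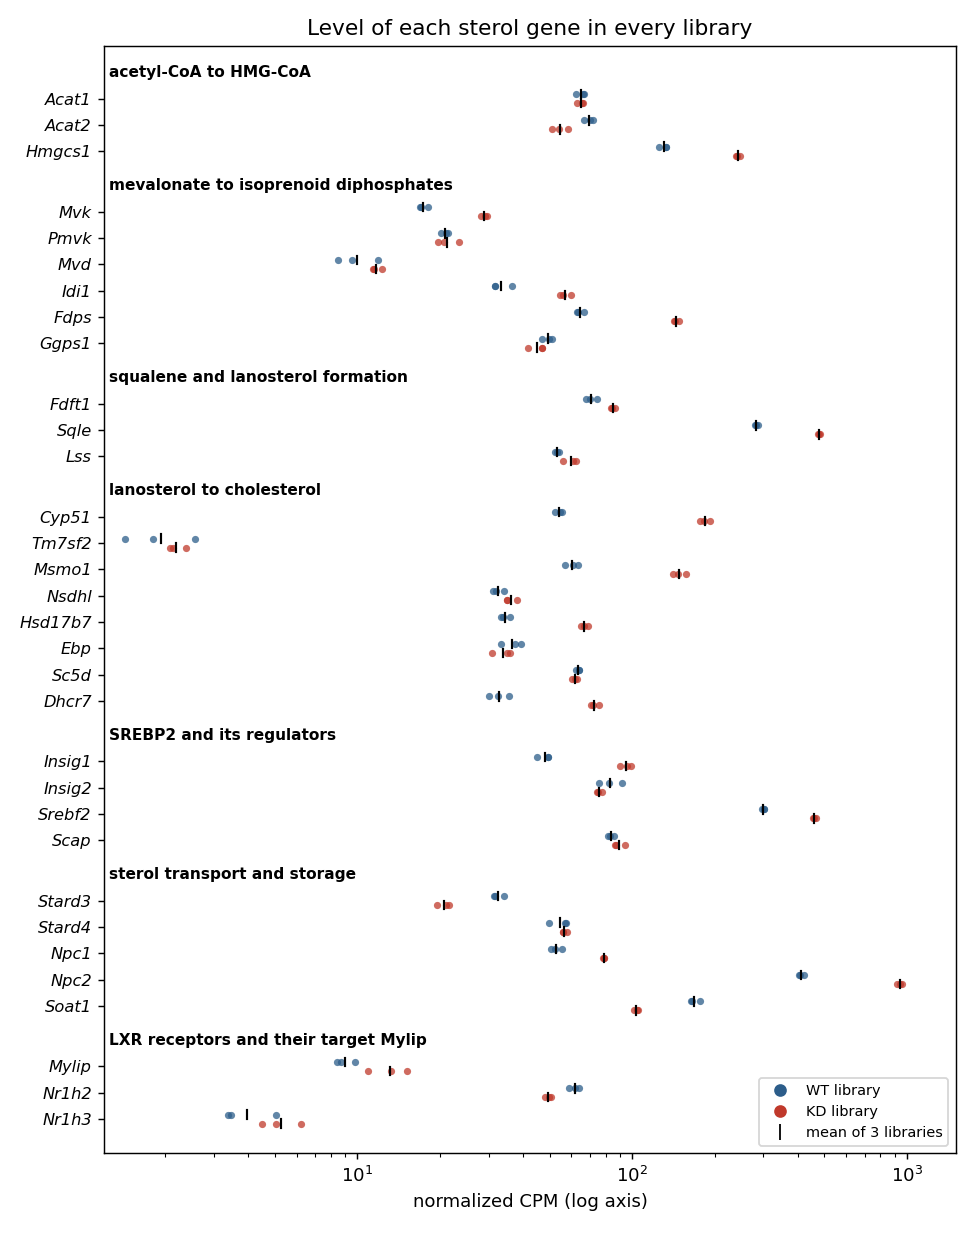
Level of each of the 32 genes in every library, in normalized CPM on a log axis, with WT libraries in blue, KD libraries in red and a black bar at each mean of 3 libraries. Levels are not corrected for transcript length, so they compare groups within a gene; the 3 KD libraries of Cyp51 sit between 177 and 192, all above the WT libraries at 52.1 to 55.3.

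Among the regulators, Srebf2 itself and Insig1 were higher in KD. Srebf2, which encodes the SREBP2 precursor and is a target of its own product, had 302, 296 and 301 normalized CPM in WT and 466, 454 and 457 in KD. The groups were far apart compared with their spread, and the change was 0.62 on the log2 scale (SE 0.03, adjusted p = 2.66e-18, edgeR), or 1.53-fold. Insig1, an SREBP target that retains Scap in the endoplasmic reticulum, had 49.4, 49.2 and 45.1 in WT and 99.0, 95.3 and 89.9 in KD. Its log2 fold change was 0.98 (SE 0.05, adjusted p = 3.12e-18, edgeR), or 1.98-fold, and it passed a fold of 2 in 3 of 13 alternatives, those without WT replicate 1, WT replicate 2 or KD replicate 3.

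Insig2 has the same function and is less dependent on SREBP. It had 91.6, 82.2 and 75.8 normalized CPM in WT and 77.5, 74.1 and 75.04 in KD, so that the groups overlapped. The fall of 0.14 on the log2 scale passed the test (adjusted p = 0.0195, edgeR), but not without WT replicate 1 (−0.065, adjusted p = 0.246), KD replicate 2 (adjusted p = 0.102) or KD replicate 3 (adjusted p = 0.0769), nor in DESeq2 (adjusted p = 0.0670). Scap, the escort of SREBP2 to the Golgi, had 85.6, 81.7 and 82.6 in WT and 87.2, 86.8 and 93.8 in KD. Although its groups did not overlap, the difference of 0.10 did not pass (adjusted p = 0.0541, edgeR), and it did pass in 5 of 13 alternatives, among them those without WT replicate 1, KD replicate 1 or KD replicate 2 (adjusted p = 0.0264, 0.0452 and 0.0292).

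The genes of sterol transport and storage moved in both directions. Npc2, the soluble lysosomal protein that hands cholesterol to Npc1, had 406, 406 and 422 normalized CPM in WT and 941, 922 and 958 in KD. Its log2 fold change was 1.19 (SE 0.03, adjusted p = 4.94e-27, edgeR), or 2.29-fold. Npc1, the membrane protein through which cholesterol leaves the lysosome, had 55.5, 52.2 and 50.6 in WT and 78.8, 77.9 and 79.1 in KD, a change of 0.58 (SE 0.05). Both genes were higher in every KD library, Npc2 by the wider margin.

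Soat1, which esterifies cholesterol for storage in lipid droplets, had 177, 164 and 163 normalized CPM in WT and 101, 105 and 104 in KD. It fell by 0.70 on the log2 scale (SE 0.04, adjusted p = 6.00e-17, edgeR) and was 1.63-fold lower, the largest decrease among the 32 genes. Stard3, a sterol carrier of late endosomes that lies near Erbb2 in the human genome, had 31.4, 34.1 and 31.7 in WT and 19.5, 21.0 and 21.6 in KD. It fell by 0.65 (SE 0.07, adjusted p = 1.09e-09, edgeR), with no overlap, while Erbb2 had 592 to 689 counts in WT and 1029 to 1061 in KD. Stard4, a cytosolic sterol carrier and a known SREBP2 target, lay at 54.7 ± 4.34 in WT and 56.6 ± 1.18 in KD, a difference with a 95% interval of −0.066 to 0.17.

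The LXR genes did not move as a group. Nr1h2, which encodes the widely expressed LXRβ, had 64.1, 61.8 and 59.1 normalized CPM in WT and 49.9, 47.9 and 50.7 in KD. It fell by 0.32 on the log2 scale (SE 0.05, adjusted p = 2.98e-06, edgeR). Nr1h3, which encodes LXRα, had few reads, 128 to 191 counts in WT and 170 to 229 in KD, with overlapping groups. Its difference of 0.41 missed the threshold (adjusted p = 0.0530, edgeR), and without WT replicate 3, the highest WT library, it was 0.62 (adjusted p = 0.00738), and without KD replicate 3 it was 0.52 (adjusted p = 0.0280), whereas without KD replicate 2 it was 0.28 (adjusted p = 0.249). Mylip, the LXR-induced ligase that marks lipoprotein receptors for degradation, had 8.71, 8.40 and 9.82 in WT and 13.2, 15.1 and 10.95 in KD. It rose by 0.54 (SE 0.12, adjusted p = 0.000114, edgeR), with no overlap between the groups but an SD of 2.07 in KD against 0.748 in WT.

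Pairs of members with related roles were compared, 5 in all, by the log2 ratio of their counts within each library, which does not depend on the scaling of libraries. Counts are not corrected for length, so only the difference between the groups is read. Insig1/Insig2 was −0.89, −0.74 and −0.75 in WT and 0.35, 0.36 and 0.26 in KD. The difference of 1.12 on the log2 scale means that the ratio was 2.17-fold higher in KD. The difference was 0.36 for Acat1/Acat2, 0.70 for Stard4/Stard3 and 0.74 for Nr1h3/Nr1h2, and that of Npc1/Npc2 was −0.62. For each of the 5 pairs the groups did not overlap, and the two-sided exact permutation test gave p = 0.1 (0.1 after Benjamini-Hochberg adjustment over the 5 pairs), the smallest p that 3 against 3 libraries allow. Nr1h3/Nr1h2 had the widest spread, −3.98 ± 0.38 in WT and −3.25 ± 0.28 in KD (SD, n = 3 each).

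**Figure D3:**
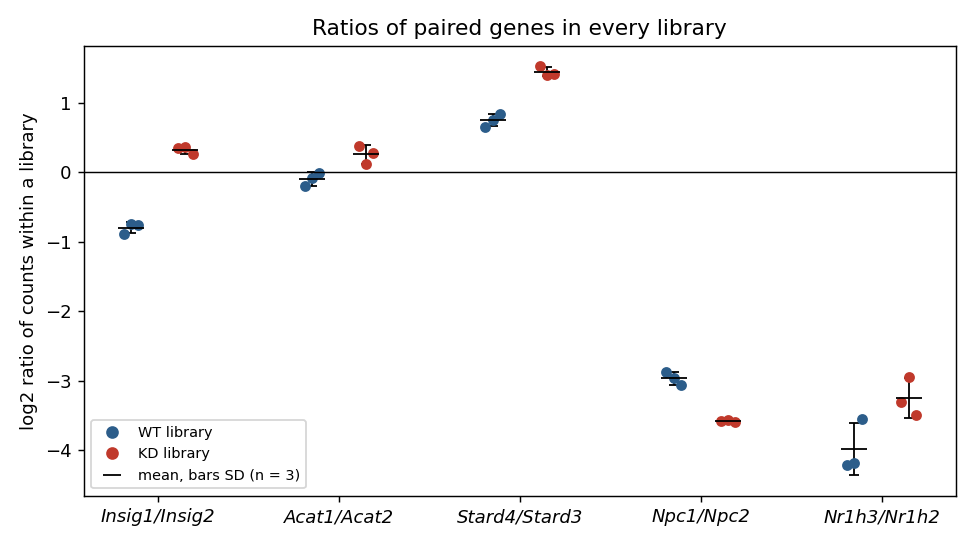
Log2 ratio of the counts of 2 genes within a library (y axis) for 5 pairs, with WT libraries in blue, KD libraries in red and black bars for the mean and SD of 3 libraries. The groups are separate in every pair, widest for Insig1/Insig2, whose ratio is below 0 in the WT libraries and above 0 in the KD libraries.

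Another 44 genes around the pathway were described in 3 groups, of which 41 were tested. Of these, 24 rose (58.5%), 8 fell (19.5%) and 9 did not pass, with a median log2 fold change of 0.32. At a fold change over 2, Soat2 and Cyp46a1 were called higher and 0 genes were called lower. The 0 also held at an unadjusted p under 0.05 in edgeR and at an adjusted p under 0.05 in DESeq2's Wald test. The lowest log2 fold change of the related genes in edgeR was −0.83, so a looser p threshold there could not have changed the 0. These shares stand against the same 36.7% and 36.7%, 10.2% and 9.98% of all genes tested. Apart from Soat2 and Cyp46a1, the related genes named here were chosen after their values were seen.

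Of 10 genes for SREBP processing and sterol-regulated protein turnover, 6 rose and 1 fell. Mbtps2, the protease that releases SREBP from the membrane, rose by 0.49 on the log2 scale, while Mbtps1, the protease that cuts before it, lay at 155 ± 1.29 normalized CPM in WT and 164 ± 4.29 in KD (SD, n = 3 each) and did not pass (adjusted p = 0.0565, edgeR). Rnf139, a ubiquitin ligase that acts on sterol-regulated proteins of the endoplasmic reticulum, rose by 0.80. Rnf145, another such ligase, was the 1 gene that fell, by 0.50. Srebf1, the gene of SREBP1, rose by 0.25, from 106 ± 0.894 to 126 ± 5.38.

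Among 20 genes of sterol storage, transport and oxysterol formation, 17 were tested, of which 9 rose and 4 fell. Soat2, the other sterol acyltransferase, typical of liver and intestine, had 36, 41 and 17 counts in WT and 306, 294 and 298 in KD. In normalized CPM this was 0.830 ± 0.336 against 7.92 ± 0.0817 (SD, n = 3 each), which is 3.25 on the log2 scale (SE 0.23, adjusted p = 9.10e-15, edgeR), opposite in direction to Soat1. Cyp46a1, which hydroxylates cholesterol at carbon 24, had 64, 49 and 64 counts in WT and 152, 114 and 129 in KD (log2 fold change 1.15, SE 0.25). Gramd1a and Gramd1b, carriers of cholesterol from the plasma membrane to the endoplasmic reticulum, fell by 0.76 and 0.83. Lipa, the acid lipase that frees cholesterol in lysosomes, rose by 0.61, as Npc1 and Npc2 did. The LXR target Abcg1 fell by 0.30 (adjusted p = 0.0229, edgeR) although its groups overlapped, and Abca1, another LXR target and sterol exporter, lay at 18.8 ± 2.21 in WT and 16.3 ± 1.04 in KD and did not pass (adjusted p = 0.0522, edgeR). Ch25h and Cyp27a1, which make oxysterols, and Cyp7b1 had 0 counts in each WT library. In KD they had 3 to 5, 1 to 5 and 1 to 10 counts, too few to test.

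In the isoprenoid branch, 9 of 14 genes rose and 3 fell. Fntb, the beta subunit of farnesyltransferase, rose by 0.99, from 9.38 ± 1.61 to 18.6 ± 0.486 normalized CPM (SD, n = 3 each), while Fnta, the alpha subunit it shares with geranylgeranyl transferase, fell by 0.15. The subunits of the Rab geranylgeranyl transferase also moved apart, Rabggtb up by 0.75 and Rabggta down by 0.52. Pdss1, Pdss2 and Coq2, which make the side chain of coenzyme Q and attach it, rose by 0.47, 0.86 and 0.63. Nus1, a subunit of the dolichol synthase, rose by 0.41, and its partner Dhdds lay at 38.6 ± 1.85 in WT and 35.5 ± 1.61 in KD, which did not pass (adjusted p = 0.0918, edgeR).

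**Figure D4:**
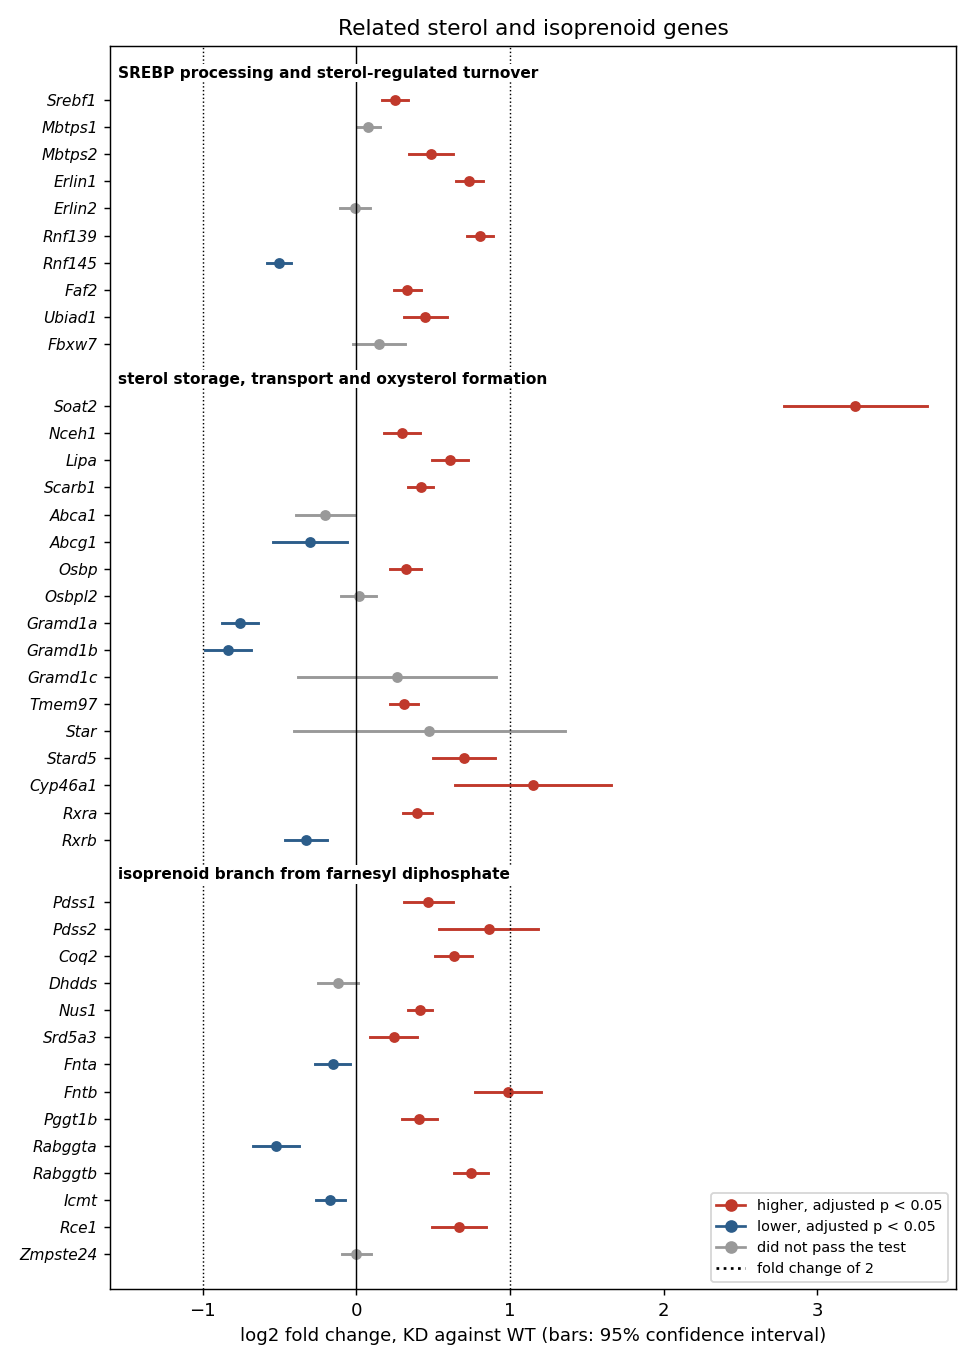
Log2 fold change, KD against WT (x axis), of the 41 related genes tested, in 3 groups, with bars for the 95% confidence interval and dotted lines at a fold change of 2. Soat2, at 3.25, lies far to the right of the others, and Gramd1b, at −0.83, is the lowest.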

How the data were processed

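RNA-seq read counts of 3 LINC00115 KD and 3 WT libraries were used as deposited. The authors trimmed adapters, mapped the reads with HISAT2 and deposited whole-number counts per gene without normalization. The paper's methods name hg19, whereas the submitters' processing notes name hg38, featureCounts and DESeq2. The annotation and the strand setting are not given in the sources used here, so genes with near-identical copies or overlapping neighbours may share reads. Columns were assigned by the sample descriptions, and 0 columns were left out.

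Counts were filtered by filterByExpr (minimum count 10, minimum total count 15), scaled by TMM and tested with the quasi-likelihood test of edgeR 4.0.16 in R 4.3.3, group only, with Benjamini-Hochberg adjustment over 13497 genes. Normalized CPM are CPM on TMM-scaled library totals, with factors of 0.990 to 1.01. Standard errors were obtained from the log2 fold change and the root of its F statistic. "Rose" and "fell" mean an adjusted p under 0.05, and "called" adds a fold change over 2. At these totals 3 counts, the limit that a count of 0 allows, equal 0.0776 to 0.0817 normalized CPM, for counting error only. All 32 genes and the called genes of the related lists are named. Of the markers whose level moved, which the rule names too, part are named and the rest counted. Other related genes were picked afterwards, and 1 is not reported here. The members and lists were chosen with earlier results of these data known. The fit was tested on simulated counts. Alternatives were 3 other scalings, 2 other filters, DESeq2 1.42.0, the replicate block and each library left out. Two-sided exact permutation tests were used for ratios.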

Additional observations from a re-analysis of the deposited data

How the results depend on the processing

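Over 13 alternatives, the number of the 32 genes that rose stayed between 16 and 19, those that fell between 4 and 7, and those called higher between 5 and 6, with 0 called lower throughout. With each library left out in turn, these were 17 to 18, 4 to 7 and 5 to 6 genes. Fdps, Cyp51, Msmo1, Dhcr7 and Npc2 were called higher under every alternative, and Insig1 joined them in 3. Related genes called higher numbered 4 rather than 2 without a low-count filter, with Ch25h and Cyp7b1 added, and 3 with DESeq2's Wald test, with Cyp7b1 added. They numbered 2 to 3 with each library left out, where Fntb crossed a fold of 2 without WT replicate 3 or KD replicate 2.

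Of 416 values for single genes, 383 kept their direction and side of the threshold, 11 lost the call, 15 gained it and 7 changed sign. The sign changes concern Acat1, Pmvk and Stard4, which passed under no alternative. Acat1 (log2 difference 0.00042) was at −0.041 with upper quartile scaling, −0.019 with library size only, −0.028 without WT replicate 1 and −0.0071 without KD replicate 1, and ranged from −0.028 to 0.032 with each library left out. Pmvk was at −0.013 with upper quartile scaling and from −0.037 (without KD replicate 2) to 0.088 with each library left out. Stard4 ranged from −0.015 (without WT replicate 1) to 0.090. The cause was not tested.

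Replicate numbers are shared between the groups, but same-numbered libraries did not deviate together (correlations of −0.018 to 0.0041 across genes). Such correlations cannot show whether these libraries were prepared together. With the replicate block, 18 genes rose, 5 fell and 5 were called higher, as were 2 related genes, and Nr1h3 passed the test (adjusted p = 0.0494, edgeR). Ratios of paired genes kept their direction with each library left out, with ranges of 1.07 to 1.15 for Insig1/Insig2, 0.30 to 0.43 for Acat1/Acat2, 0.66 to 0.75 for Stard4/Stard3, −0.66 to −0.57 for Npc1/Npc2 and 0.58 to 0.95 for Nr1h3/Nr1h2. Their exact test cannot pass 0.05 in this design and says nothing about stability. Depth limits Tm7sf2 and Nr1h3, with the fewest counts of the 32 genes.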
